A study of Homo sapiens with 6 samples.

Results

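The mirtrons hsa-miR-877, hsa-miR-1225, hsa-miR-1226, hsa-miR-1228 and hsa-miR-1229, the miR-320 family (hsa-miR-320a, hsa-miR-320b, hsa-miR-320c and hsa-miR-320d) and hsa-miR-484 were examined as noncanonical miRNAs. Mirtrons as a class, miR-320a and miR-484 are reported to be made without Drosha, the nuclear nuclease that starts the processing of most miRNAs. The route of each member was not tested here. Members were taken by name from a table of 1155 mature miRNAs: a row counted when its name was 1 of the 10 stems, alone or with a copy number or an arm suffix. This gave 12 rows from 9 stems, with 6 mirtron rows, 5 miR-320 rows and 1 row for miR-484. The miR-1225 arms are not analysed here.

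Small RNA was sequenced from U2OS, an established osteosarcoma cell line, in 3 libraries of cells with a stably integrated short hairpin RNA against the long non-coding RNA LINC00673 (labelled LINC00673) and in 3 libraries labelled NC. The series describes the comparison cells as wild type, and the sources used here give neither whether NC cells carried a control construct nor how far LINC00673 was reduced. The comparison asked what LINC00673 depletion does to expression in these cells. No label says whether replicates came from separate cultures. The p-values therefore reflect only the spread among these 6 samples, which may be technical.

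Most miRNA precursors are cut out of a longer transcript by Drosha and are trimmed afterwards by Dicer. Mirtrons skip the first cut: they are short introns that the spliceosome removes, and the debranched intron folds into a hairpin that Dicer accepts. Precursors of miR-320a and miR-484 skip it in another way. In mammalian cells their 5′ end has been described as the capped start of transcription itself, with export by the route that capped RNAs use, and essentially 1 arm is loaded. For miR-320b, miR-320c and miR-320d, which are related by sequence, the same route is not assumed here.

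Mature sequences are given first, and the positions of the loci follow. Below are mature miRNAs of the 3 classes, 5′ to 3′, with miR-320a-3p, the most abundant row, named only. Bases 2 to 8, the seed that pairs with targets, are in capitals (RefSeq, GRCh38.p14).
miR-877-5p: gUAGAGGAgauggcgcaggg
miR-877-3p: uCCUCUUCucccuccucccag
miR-1226-3p: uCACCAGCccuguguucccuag
miR-484: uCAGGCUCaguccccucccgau
miR-320b: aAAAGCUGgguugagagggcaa
miR-320c: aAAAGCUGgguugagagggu
miR-320d: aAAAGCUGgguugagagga
The 3 printed miR-320 sequences have 1 seed, AAAGCUG, which miR-4429 also has, and differ only toward the 3′ end. The seeds of miR-877-5p, miR-877-3p and miR-1226-3p occurred in no other miRNA of the RefSeq table used. The seed of miR-484 recurs in miR-3155a and miR-3155b, of which only miR-3155a was in the table, with at most 1.35 CPM (reads of a miRNA scaled to a fixed library total) in any library.

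The mirtron hairpins coincided with introns from end to end. The MIR877 hairpin (chr6:30584332-30584417, plus strand) is an entire intron of 86 bases in 3 of 3 overlapping transcripts of ABCF1, a ribosome-associated protein of translation initiation. The hairpin reads as follows, with both mature arms in capitals.
MIR877: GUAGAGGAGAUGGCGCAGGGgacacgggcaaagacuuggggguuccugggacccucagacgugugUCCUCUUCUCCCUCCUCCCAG
Its first 2 letters, GU, are the splice donor and its last 2, AG, the splice acceptor, so miR-877-5p starts at the first base of the intron and miR-877-3p ends at its last. Whole introns are also MIR1225 in PKD1 (polycystin-1; chr16:2090195-2090284), MIR1226 in the RNA helicase gene DHX30 (chr3:47849555-47849629) and MIR1228 in the endocytic receptor gene LRP1 (chr12:57194504-57194576). MIR1229 is a whole intron of the glycosyltransferase gene MGAT4B (chr5:179798278-179798346) in 9 of 10 overlapping transcripts. The 3p arm of MIR1228 ends before the AG of its intron. All 5 hairpins matched a whole intron in GENCODE release 29, which follows from their choice as reported mirtrons. Over the 1562 RefSeq hairpins, these 5 included, the share was 1.47%. GU and AG ends were found in 0.845% of the hairpins that are not whole introns.

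The other classes lie differently. MIR484 (chr16:15643294-15643372, plus strand) sits at the start of NDE1, a centrosomal regulator of dynein. A GENCODE transcript of NDE1 starts 27 bases before the hairpin, and the RefSeq gene starts 10 bases after its end. The mature miRNA, in capitals here, starts 7 bases into the hairpin.
MIR484: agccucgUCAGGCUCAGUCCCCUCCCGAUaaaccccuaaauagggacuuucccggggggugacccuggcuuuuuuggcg

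MIR320A lies on the minus strand, and its 5′ end is 96 bases from the start of POLR3D, a subunit gene of RNA polymerase III on the plus strand. Among the copies behind the other miR-320 rows, MIR320B2 (chr1:224257040-224257110) lies on the sense strand of an intron of NVL that is 17715 bases long. MIR320C1 (chr18:21683518-21683589) and MIR320C2 (chr18:24321675-24321746) lie opposite to introns of ABHD3 and OSBPL1A. MIR320B1 (chr1:116671746-116671817), MIR320D1 (chr13:40727816-40727887) and MIR320D2 (chrX:140926160-140926231) lie outside annotated genes. None of these 6 hairpins is a whole intron.

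**Figure D1:**
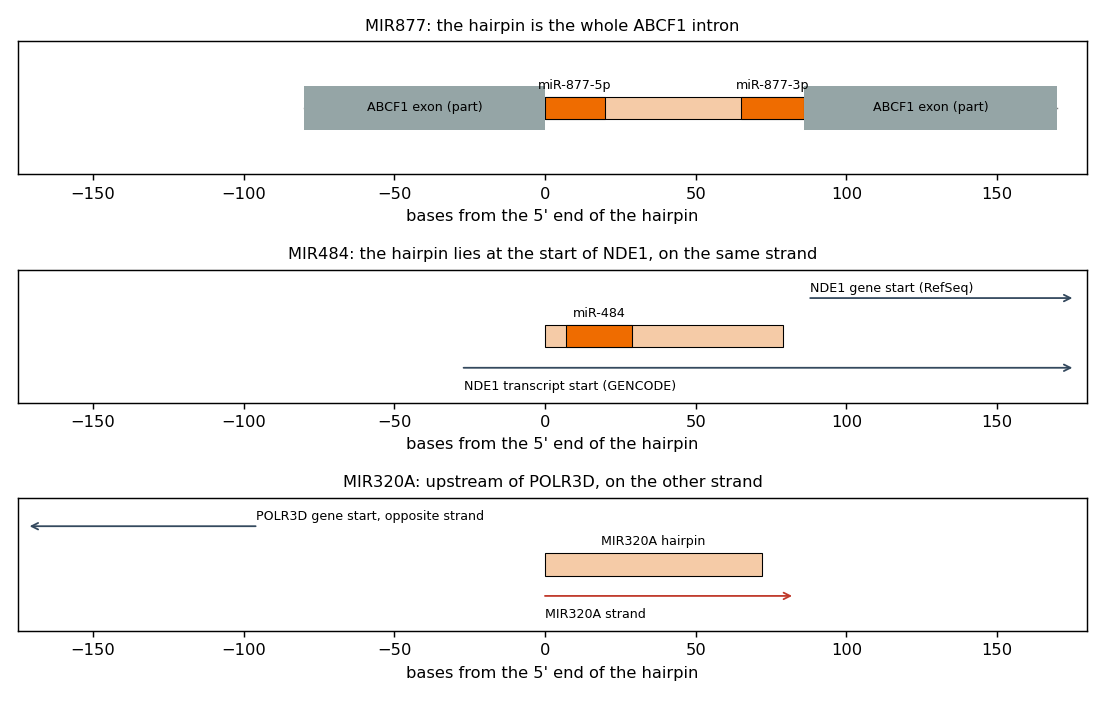
Maps of MIR877, MIR484 and MIR320A, drawn to scale in bases from the 5′ end of each hairpin (pale bars; mature arms in orange; part of each ABCF1 exon in grey; arrows show the direction of transcription). The MIR877 hairpin fills its 86-base intron, MIR484 lies between the GENCODE and the RefSeq start of NDE1, and MIR320A lies 96 bases from POLR3D on the other strand.

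Total depth was modest and unequal: the CPM denominators were 380298, 742349 and 762663 reads in LINC00673 replicates 1, 2 and 3. They were 483322, 311448 and 295567 reads in NC replicates 1, 2 and 3. Across libraries 1 read was worth 1.31 to 3.38 CPM. Whole reads were recovered from the CPM values, and intervals on them, like the floor of 3 reads at 3.93 to 10.2 CPM, cover counting error only. The NC libraries were less alike than the LINC00673 libraries, of which replicates 2 and 3 were the deepest of all. What part depth has in this was not tested. Over the 362 miRNAs averaging 10 CPM or more, NC replicate 3 differed from each LINC00673 library by a root mean square of 0.69 to 0.79 on the log2(CPM + 1) scale, and from NC replicates 1 and 2 by 0.96 and 0.88. NC replicate 1 differed from the LINC00673 libraries by 0.82 to 0.87 and NC replicate 2 by 0.81 to 0.93. NC replicates 1 and 2 differed from each other by 0.86. LINC00673 replicates 2 and 3 were the closest pair, at 0.42. What part NC replicate 3 has in the results was not tested beyond leaving it out.

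Of the 12 rows, 9 averaged 1 CPM or more and were tested, and 5 reached 10 CPM. None passed the main test, limma on log2(CPM + 1) with Benjamini-Hochberg adjustment over all 810 miRNAs tested, which called 0.247% of them as higher and 0% as lower in LINC00673 libraries. An unadjusted limma p under 0.05 was found for 4 of the 9, with higher levels for miR-484, miR-320a-3p and miR-320d and a lower level for miR-877-5p, against 6.67% and 4.44% of all miRNAs in these directions. The quasi-likelihood test of edgeR, run on whole reads and with its own scaling of libraries, passed miR-484 (higher) and miR-877-5p (lower), against 1.85% and 0.864% of all miRNAs called. DESeq2 gave an adjusted p only for miR-320a-3p and miR-877-5p among the 9, so the other rows, miR-484 and miR-320d included, could not pass. With it 0 members passed as higher, and miR-877-5p passed as lower. Over all 810 miRNAs, with rows lacking an adjusted p counted as not passing, the shares were 0.617% and 1.23%. The log2 difference was above 0 for 6 of the 9 tested rows and below 0 for 3, with a median of 0.58, against 0.06 and 53.2% above 0 over all miRNAs tested; 4 of the 9 rows rest on values under 10 CPM.

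Among the mirtrons, miR-877-5p was by far the most abundant and was lower in LINC00673 libraries. Its level was 105, 68.7 and 70.8 CPM in LINC00673 replicates 1, 2 and 3, and 149, 273 and 108 CPM in NC replicates 1, 2 and 3. All LINC00673 values were below all NC values, though LINC00673 replicate 1 and NC replicate 3 differed by less than counting error (40 and 32 reads, intervals of 75.1 to 143 CPM and 74.1 to 153 CPM). LINC00673 libraries averaged 81.6 ± 20.5 CPM and NC libraries 177 ± 85.8 CPM (SD, n = 3 each). On the log2 scale they differed by -1.03 (standard error 0.31, 95% interval -1.68 to -0.38), with an adjusted p of 0.182 from limma, 0.0177 from edgeR and 0.0468 from DESeq2.

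NC replicate 2 carried much of that difference. Without it the log2 difference was -0.66 in limma (adjusted p = 0.454) and -0.64 in edgeR (adjusted p = 0.400). The edgeR call was also lost without LINC00673 replicate 1, 2 or 3 (adjusted p = 0.302, 0.306 and 0.537). It was kept without NC replicate 1 or 3 (adjusted p = 0.00397 and 0.00196). Over all miRNAs, edgeR called 7 as lower with all libraries, 0 without LINC00673 replicate 1 or 3, and 1 without LINC00673 replicate 2. That count was 2 without NC replicate 2, 8 without NC replicate 1 and 13 without NC replicate 3.

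The opposite arm of the same intron, miR-877-3p, was rare. It had 1, 4 and 2 reads in LINC00673 libraries and 0, 0 and 2 reads in NC libraries, and the ratio of pooled read rates was 2.02 with a counting interval of 0.385 to 20.0. The 5p arm therefore made up 97.6%, 92.7% and 96.4% of the reads of both arms in LINC00673 libraries, and 100%, 100% and 94.1% in NC libraries. The exact binomial intervals of these shares overlapped between groups, the lowest starting at 82.4% among LINC00673 libraries (replicate 2) and at 80.3% among NC libraries (replicate 3).

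The DHX30 mirtron miR-1226-3p showed no separation. It had 15.8, 8.08 and 5.24 CPM in LINC00673 libraries and 0, 16.1 and 6.77 CPM in NC libraries, with at most 6 reads in any library. For the value of 0 in NC replicate 1, the floor of 3 reads is 6.21 CPM and the exact 95% interval ends at 7.63 CPM. The limma log2 difference of 0.95 had an interval of -0.85 to 2.74 (adjusted p = 0.798), and without NC replicate 1 it was -0.23.

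The remaining mirtron rows were at the limit of detection. The LRP1 mirtron gave miR-1228-5p with 2 reads in all LINC00673 libraries and 2 in all NC libraries, and miR-1228-3p with 3 and 0. The MGAT4B mirtron gave miR-1229-3p with 1 read in each group. No difference was detectable for these rows at this depth. As for the miR-877 arms, miR-1228-5p starts with the donor GU and miR-1229-3p ends with the acceptor AG.

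Summed over the 6 rows, mirtrons reached 124, 84.9 and 83.9 CPM in LINC00673 libraries, and 151, 295 and 122 CPM in NC libraries. NC replicate 3 thus lay just under LINC00673 replicate 1. The ratio of the group means was 0.515, and miR-877-5p provided 81.0% to 85.1% of the mirtron reads in LINC00673 and 88.9% to 98.6% in NC libraries. Without miR-877 the log2 ratio of the mirtron sums was 0.24 instead of -0.96, and without NC replicate 2 it was -0.49. The rows left without miR-877 had at most 6 reads each in any library. In NC replicate 1 they came to 1 read, of miR-1228-5p.

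**Figure D2:**
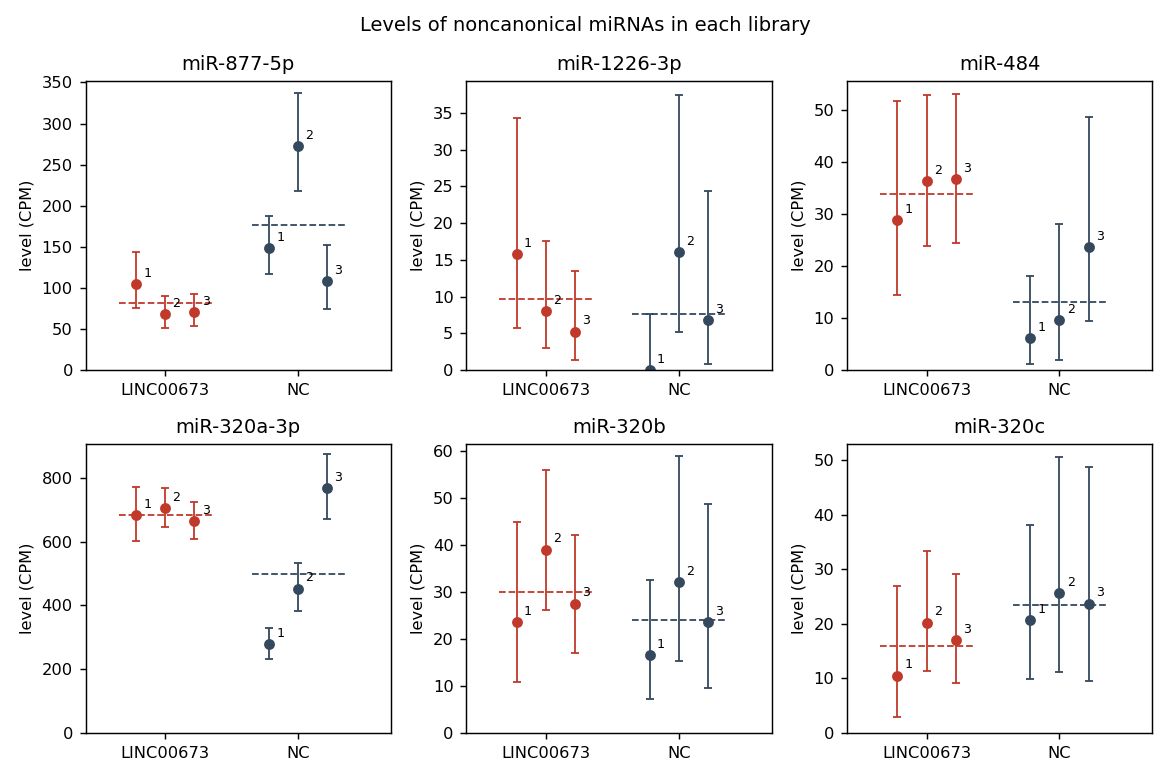
Levels in CPM of the 5 rows averaging 10 CPM or more, and of miR-1226-3p, in each library (points, numbered by replicate), with 95% counting intervals and group means (dashed). All LINC00673 points lie below the NC points for miR-877-5p and above them for miR-484, and NC replicate 3 lies above all LINC00673 libraries for miR-320a-3p.

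The capped miRNA miR-484, studied in mouse heart cells as a repressor of the mitochondrial fission factor FIS1, was higher in LINC00673 libraries. Its level was 28.9, 36.4 and 36.7 CPM in LINC00673 replicates 1, 2 and 3, and 6.21, 9.63 and 23.7 CPM in NC replicates 1, 2 and 3. All LINC00673 values were above all NC values, with NC replicate 3 the closest to them. These levels rest on 11, 27 and 28 reads against 3, 3 and 7 reads, so NC replicates 1 and 2 stood at the floor. The counting interval of LINC00673 replicate 1 started at 14.4 CPM. It overlapped those of NC replicates 1, 2 and 3, which ended at 18.14, 28.15 and 48.80 CPM. On the log2 scale the groups differed by 1.49 (standard error 0.50, 95% interval 0.46 to 2.52), with an adjusted p of 0.182 from limma and 0.0412 from edgeR. DESeq2 gave none.

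The ratio of pooled read rates of miR-484 was 2.94, with a counting interval of 1.60 to 5.80. Among the edgeR fits without 1 library, miR-484 passed only without NC replicate 3 (adjusted p = 0.00537, log2 difference 2.26). When LINC00673 replicate 1, 2 or 3 was left out, the edgeR adjusted p was 0.302, 0.264 and 0.537, and when NC replicate 1 or 2 was left out it was 0.328 and 0.146, with log2 differences of 1.16 to 1.64. Over all miRNAs, edgeR called 15 as higher with all libraries, 0 without LINC00673 replicate 1 or 3, and 4 without LINC00673 replicate 2. It called 7 without NC replicate 1, 5 without NC replicate 2 and 36 without NC replicate 3. With the replicate number as a block, edgeR gave miR-484 an adjusted p of 0.0521.

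The most abundant row, miR-320a-3p, did not separate the groups. Its level was 684, 706 and 665 CPM in LINC00673 replicates 1, 2 and 3, and 277, 453 and 768 CPM in NC replicates 1, 2 and 3. The LINC00673 libraries were close to each other, 2 NC libraries lay below them and NC replicate 3 lay above them. With 134 or more reads in every library, counting error was small: the interval of NC replicate 1 ended at 328 CPM and that of NC replicate 3 began at 671 CPM. The spread among NC libraries was thus larger than counting error. LINC00673 libraries averaged 685 ± 20.6 CPM and NC libraries 499 ± 249 CPM (SD, n = 3 each). The log2 difference of 0.58 had an interval of 0.05 to 1.11 and an adjusted p of 0.394 in limma, 0.155 in edgeR and 0.359 in DESeq2.

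NC replicates 1 and 3 set the size of that difference. It was 0.21 in limma without NC replicate 1 (adjusted p = 0.754) and 0.95 without NC replicate 3 (adjusted p = 0.136), and in edgeR without NC replicate 3 it was 1.04 and passed (adjusted p = 0.000755). The 5p arm, miR-320a-5p, had 2 reads in LINC00673 replicate 2 and 0 in every other library, while miR-320a-3p had 1793 reads over all 6 libraries.

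The minor members of the family did not follow a common direction. The level of miR-320b was 23.7, 39.1 and 27.5 CPM in LINC00673 libraries and 16.6, 32.1 and 23.7 CPM in NC libraries, with overlap and a log2 difference of 0.33 (interval -0.56 to 1.21, limma adjusted p = 0.877). For miR-320c it was 10.5, 20.2 and 17.1 CPM in LINC00673 libraries and 20.7, 25.7 and 23.7 CPM in NC libraries. All LINC00673 libraries lay below all NC libraries for miR-320c, but LINC00673 replicate 2 and NC replicate 1 differed by under 1 read's worth, and the log2 difference of -0.57 did not pass (interval -1.53 to 0.40, limma adjusted p = 0.736). For miR-320d there were 2, 3 and 5 reads in LINC00673 libraries and 0, 0 and 1 in NC libraries, a ratio of pooled read rates of 5.78 with a counting interval of 0.823 to 251 (limma adjusted p = 0.425).

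The printed miR-320b, miR-320c and miR-320d sequences differ only in their last bases, and the sources used here do not say how reads that match several names were assigned. The split among family members is therefore uncertain. Within the family, miR-320a-3p held 91.4% to 94.5% of reads in LINC00673 libraries and 88.2% to 93.8% in NC libraries. The share of miR-320c was 1.45%, 2.62% and 2.38% in LINC00673 libraries and 6.58%, 5.03% and 2.89% in NC libraries, and the exact intervals of every LINC00673 library overlapped those of every NC library. Elsewhere in the table miR-199b-3p, whose mature sequence is also that of miR-199a-3p, repeated its value in every library, so reads counted under several names may also enter the family sum more than once. That sum was 723, 772 and 716 CPM in LINC00673 libraries and 314, 511 and 819 CPM in NC libraries, so the groups overlapped as they did for miR-320a-3p.

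Over the 9 tested rows, the groups did not overlap for 4: miR-484 and miR-320d lay higher, against 7.78% of all miRNAs tested, and miR-877-5p and miR-320c lay lower, against 7.65%. The intervals in the plot of differences show how unequal the evidence is. Before adjustment, those of miR-877-5p and miR-484 lie clear of 0 on opposite sides, and those of miR-320a-3p and miR-320d start just above 0, at 0.05 and 0.04. The interval of miR-877-3p runs over -0.86 to 3.15.

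**Figure D3:**
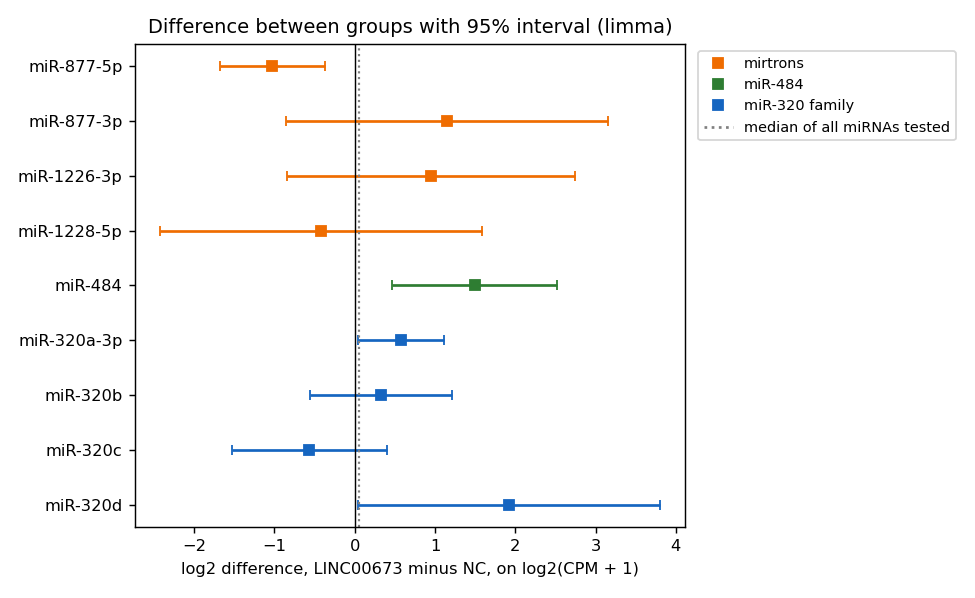
Log2 differences (LINC00673 minus NC, on log2(CPM + 1)) of the 9 tested rows with unadjusted 95% limma intervals, coloured by class; the dotted line is the median of all miRNAs tested, 0.06. The value is -1.03 for miR-877-5p and 1.49 for miR-484, and none passed after adjustment.

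Ratios within a library do not depend on the CPM denominator, and they set the intronic class against the others. The miR-320 family exceeded the mirtrons 5.85-, 9.09- and 8.53-fold in LINC00673 libraries, and 2.08-, 1.73- and 6.72-fold in NC libraries. NC replicate 3 thus lay inside the range of the LINC00673 libraries and far from the other NC libraries. The ratio of miR-484 to the mirtrons was 0.234, 0.429 and 0.438 in LINC00673 libraries, and 0.0411, 0.0326 and 0.194 in NC libraries, with no overlap. The ratio of miR-484 to the miR-320 family was 0.0400, 0.0471 and 0.0513 in LINC00673 libraries, and 0.0197, 0.0189 and 0.0289 in NC libraries, again with no overlap. Both ratios contain miR-484, whose own levels did not overlap, so they add no separate evidence. In the closest libraries they rest on 11 miR-484 reads (LINC00673 replicate 1) and 7 (NC replicate 3). NC replicates 1 and 2 had 3 each. No counting interval and no share over all miRNAs was computed for the ratios. These ratios were described without a test, since the classes were compared with the results for their members known.

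The ratios to mirtrons moved most when miR-877 was left out, and they also depended on single NC libraries. On the log2 scale the mean ratio of miR-484 to mirtrons was 2.47 higher in LINC00673 than in NC libraries, with 1.98 to 3.27 when any 1 library was left out (lowest without NC replicate 2, highest without NC replicate 3) and 0.76 without miR-877. For the miR-320 family over mirtrons it was 1.41, with 1.04 to 2.02 when any 1 library was left out (lowest and highest without the same NC libraries) and -0.30 without miR-877. The values without miR-877 rest on few reads, with 1 mirtron read left in NC replicate 1. The mean log2 ratio of miR-484 to the miR-320 family was 1.06 higher in LINC00673 libraries, and 0.94 to 1.25 with any 1 library left out.

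**Figure D4:**
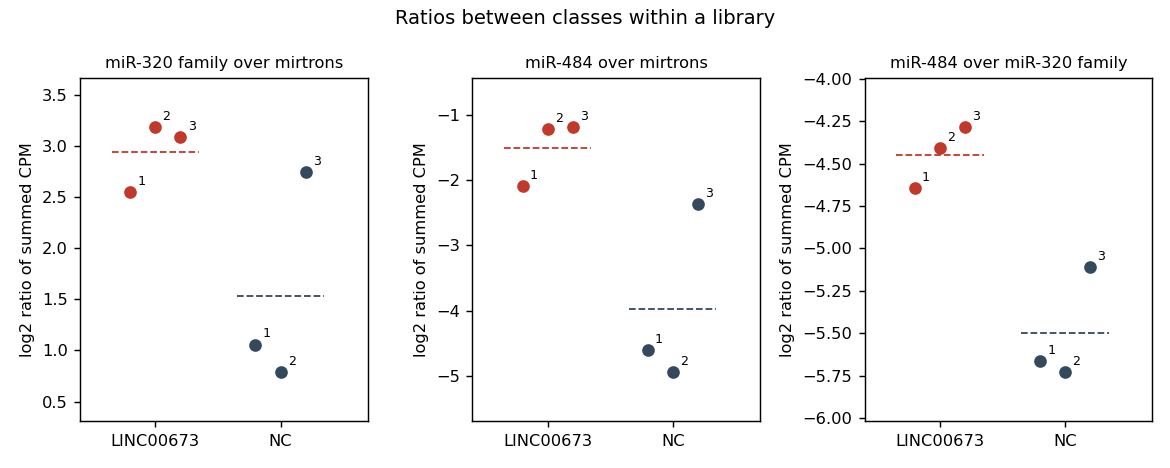
Log2 ratios of summed CPM between classes in each library (points, numbered by replicate) with group means (dashed). In the 2 ratios to mirtrons, NC replicates 1 and 2 lie far below all LINC00673 libraries, while NC replicate 3 lies within or near the LINC00673 range.

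Other reported mirtrons and miR-320e gave few reads. In a list of further reported mirtrons (miR-1224, miR-1227, miR-1231, miR-1233, miR-1234, miR-1236, miR-1237 and miR-1238) with miR-320e, 4 rows were in the table, 3 were tested and 0 passed limma or edgeR in either direction. The mirtron miR-1224-5p, from VWA5B2, had 10.5, 2.69 and 6.56 CPM in LINC00673 libraries and 6.21, 12.8 and 20.3 CPM in NC libraries, a difference of -0.91 on the log2 scale (limma adjusted p = 0.673). Both miR-1236-5p, from NELFE, and miR-320e stayed under 5 CPM in every library. The 1 read of miR-1234-3p was in NC replicate 2.

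A wider set was taken from the annotation: 23 RefSeq hairpins equal a whole GENCODE intron, and they gave 14 rows in the table, 6 of them those of the mirtrons described above. Of these rows 8 were tested, and 4 of the 8 were the mirtron members already described, so the set is not independent of them. The 8 rows had 3 log2 differences above 0, 5 below 0 and a median of -0.35, against 0.06 over all miRNAs tested. The 4 non-members had 1 above 0, 3 below 0 and a median of -0.39, and 0 of them passed edgeR. None of the 8 passed limma, and miR-877-5p was the 1 row that passed edgeR, as lower, against 0.864% of all miRNAs tested. The groups did not overlap for 2 rows, both lower, against 7.65% of all: miR-877-5p and miR-6834-5p, from an intron of the prefoldin subunit gene PFDN6. The level of miR-6834-5p was 2.63, 5.39 and 5.24 CPM in LINC00673 libraries and 6.21, 6.42 and 6.77 CPM in NC libraries, which is 1 to 4 reads per library (limma adjusted p = 0.885). Only miR-877-5p had a mean of at least 10 CPM among the 8.

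The GC content was 65.0% in miR-877-5p and 63.6% in miR-484, which lay on opposite sides of 0, and 47.4% in miR-320d. Over the 124 tested miRNAs with a GC content of at least 60%, the median log2 difference was 0.06. It was -0.02 over 138 under 40%, 0.12 over 207 from 40% to under 50%, and -0.01 over 245 from 50% to under 60%. Whether GC content has a part in the differences was not tested.

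Profiles across the 6 libraries were compared by the root mean square difference of log2(CPM + 1), each centred on its own mean, over 357 other miRNAs averaging 10 CPM or more. Nearest to miR-320a-3p was miR-708-5p at 0.10, against a median of 0.59 over these miRNAs, followed by miR-1292-5p at 0.12 and miR-425-5p at 0.13. The level of miR-708-5p was 828, 824 and 787 CPM in LINC00673 libraries and 383, 575 and 849 CPM in NC libraries. NC replicate 3 was the highest library for it too, but miR-708-5p was picked for likeness over these same 6 libraries. Nearest to miR-484 were miR-3615 at 0.28, miR-92b-3p at 0.29 and miR-93-3p at 0.30, against a median of 0.94. Nearest to miR-877-5p were miR-12136 at 0.33, let-7a-2-3p at 0.35 and miR-324-5p at 0.36, against a median of 0.80.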

How the data were processed

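Small RNA libraries of 3 LINC00673 and 3 NC samples were made from TRIzol RNA with a NEBNext kit, per the labels' protocols. The authors deposited 1 table of CPM per mature miRNA, with hg38 named as build in the submitters' processing notes; aligner, counter and miRBase release were not given in the sources used here. Dividing each column by the CPM of 1 read gave whole reads for 100% of values (within 0.1 read).

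Testing covered 810 miRNAs whose mean reached 1 CPM and used limma 3.58.1 under R 4.3.3 on log2(CPM + 1), a trended variance prior, two-sided, at a Benjamini-Hochberg adjusted p of 0.05. Fold changes on this scale understate those of low miRNAs. Alternatives included edgeR 4.0.16 and DESeq2 1.42.0 on recovered reads, and edgeR called 15 higher and 7 lower miRNAs. Both rescale the libraries, edgeR by trimmed means (TMM), while the main limma fit took CPM as given, so scaling differs as well as the test. The median log2 difference over all miRNAs was 0.12 in edgeR and 0.06 in limma. Limma with TMM scaling gave an adjusted p of 0.112 for miR-484 and 0.147 for miR-877-5p. The fits were checked on simulated counts. Counting intervals are exact at 95%. Class sums and ratios were not tested.

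Hairpins were compared with GENCODE release 29 introns. Member rows with a mean of at least 10 CPM are given library by library. Profiles were compared for the most abundant row of each class. Members and lists were chosen with earlier results of these data known; the whole-intron set, GC and library-distance comparisons were added later.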

Additional observations from a re-analysis of the deposited data

How the results depend on the processing

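In limma, 0 member rows passed as higher and 0 as lower, and over all 810 miRNAs 2 passed as higher and 0 as lower. As higher, all miRNAs came to 0 with a pseudocount of 0.5, a minimum mean of 10 CPM, rescaling without the 10 most abundant, quantile normalization or no trend in the prior, to 4 without a filter on low values, to 15 in edgeR and to 5 in DESeq2. As lower they came to 5 with a pseudocount of 5, 7 without a filter, 7 in edgeR and 10 in DESeq2. Leaving out 1 library gave 0 to 36 higher and 0 to 13 lower over limma and edgeR (8 lower in edgeR without NC replicate 1). Among members, edgeR passed 1 as higher and 1 as lower, DESeq2 and limma without a filter 1 each as lower (miR-877-5p, limma adjusted p = 0.0364), and leaving out 1 library 0 to 2 as higher and 0 to 1 as lower. With the replicate number as a block, edgeR passed 14 higher and 7 lower miRNAs, among members 0 higher and 1 lower (miR-877-5p, adjusted p = 0.0418), and limma 2 and 0. Same-numbered libraries did not deviate together (correlations of 0.03, 0.07 and 0.01), so the numbers were not taken as pairs.

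Over 212 alternative values of the 9 tested rows, 3 reversed. For miR-1226-3p, the log2 difference was -0.23 in limma and -0.29 in edgeR without NC replicate 1, against 1.82 in limma without NC replicate 2. For miR-1228-5p it was 0.0044 in limma without NC replicate 2, against -1.03 without NC replicate 3. Without miR-877, the mirtron sum reversed to 0.24 and the miR-320 ratio to -0.30, and the miR-484 ratio moved to 0.76. These 3 values rest on few mirtron reads, with 1 left in NC replicate 1. The other 48 alternatives of sums and ratios stayed within 1 SD, which is wide: with 1 library left out, the mirtron sum ran over -1.20 to -0.49. The causes were not tested, except that leaving out libraries lowers the number of samples. Depth limits every row under 10 CPM, and miR-484, which had 3 reads each in NC replicates 1 and 2.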
